A study of Capra hircus with 36 samples.

Results

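The miR-143 and miR-145 family was described here across 6 goat tissues and 2 altitudes, with chi-miR-143-3p and chi-miR-145-5p as its main products. Members were taken by name: every mature miRNA named chi-miR-143 or chi-miR-145, either arm, with or without a leading conserve-, which left out 2 entries marked as newly predicted. The rule found 8 of 1391 mature miRNAs, 2 from miR-143 and 6 from miR-145. Small RNA was sequenced from spleen, lung, liver, kidney, heart and longissimus muscle (muscle in the following) of 3 high-altitude goats (3000 m, Tibetan) and 3 low-altitude goats (600 m, Chuandong White), giving 36 libraries. All 6 goats were females older than 3 years. Each altitude was represented by its own breed. By the paper, the high-altitude goats were also kept by stocking or nomadism and were lighter on average, while the low-altitude goats were home-reared. Altitude thus cannot be told apart from breed, rearing and body weight.

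Both hairpins lie next to each other in the genome and are known to be transcribed together, with SRF and myocardin as their best studied activators. In the walls of blood vessels and hollow organs they are known for holding smooth muscle cells in the contractile state, miR-145 in part through the transcription factors KLF4 and KLF5 and miR-143 through ELK1. Each hairpin yields a 5p and a 3p arm, of which usually one is retained and the other degraded. In the RefSeq annotation of goat assembly ARS1.2, MIR145 and MIR143 were direct neighbours, with CSNK1A1 on one side and IL17B on the other.

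Library totals, the sum of counts over all miRNAs, ran from 7108635 to 14407748, so that 3 counts equalled 0.208 to 0.422 RPM (counts divided by the library total, times 1e6). The tissue labels were checked against markers: miR-122-5p for liver, miR-208b-3p and miR-499-5p for heart, miR-206-3p for muscle, miR-34c-5p for lung and miR-142-3p for spleen were each higher in all 6 libraries of their tissue than in any other library. The kidney marker miR-204-5p separated kidney less clearly, since 1 of 6 kidney libraries exceeded all others and a liver library reached 1175 RPM. Another kidney marker, miR-192-5p, and another lung marker, miR-449a-5p, were not analysed here. Muscle miR-133a-3p stood above every other library in 5 of 6 libraries and spleen miR-150-5p in 4 of 6.

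The 4 main arms differed widely in level. miR-143-3p held 60172628 counts, which was 15.8% of all counts of the series, and its mean of 168572 RPM ranked 1 of 1391. miR-145-5p averaged 1392 RPM (rank 55), miR-145-3p 1061 RPM (rank 64) and miR-143-5p 88.2 RPM. All 4 had at least 100 counts in each of the 36 libraries, so none of their values rested on a few reads.

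miR-143-3p took the largest part of spleen and the smallest part of skeletal muscle. Its share of the library was 42.1% ± 7.48 (SD, n = 6) in spleen, 23.3% ± 6.67 in lung, 12.9% ± 3.82 in liver, 11.4% ± 5.83 in heart, 8.32% ± 1.54 in kidney and 3.14% ± 1.69 in muscle. It was the most abundant miRNA in 14 of 36 libraries, namely 6 of 6 in spleen, 4 of 6 in lung, 2 of 6 in heart and 2 of 6 in liver, and its lowest rank was 9, in muscle. In bulk samples fewer cells of a type and less RNA per cell cannot be told apart.

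On the RPM scale the order of the tissues was clear at its ends and unclear in the middle, whereas 0 of 5 neighbour pairs passed on counts scaled by TMM (trimmed mean of M values) factors. Between neighbours in that order, spleen exceeded lung by 0.89 in mean log2(RPM + 1), in 6 of 6 goats (two-sided exact permutation p = 0.00216, the smallest that 6 against 6 libraries can give, adjusted p = 0.0108 over 10 neighbour pairs). Lung exceeded liver by 0.86 in 5 of 6 goats (exact permutation adjusted p = 0.0433), and kidney exceeded muscle by 1.54 in 6 of 6 (exact permutation adjusted p = 0.0108). Liver against heart (0.28) and heart against kidney (0.32) did not differ beyond their spread, with an exact permutation adjusted p of 0.481 for each. These libraries came in sets of 6 tissues from the same goats, with equal replicate numbers within an altitude taken as the same goat. With goats paired in this way (exact sign-flip permutation, smallest possible p 0.0312) the adjusted p of the 3 passing pairs became 0.0781, 0.104 and 0.0781. On counts scaled by TMM, which lowered spleen, lung and liver and raised heart and muscle, heart stood above liver (liver minus heart -0.47).

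Fits across all miRNAs placed the same tissues at the ends. Against the mean of the other 5 tissues, miR-143-3p was higher in spleen by a log2 fold change of 1.61 (SE 0.25, adjusted p = 1.36e-05 by the edgeR quasi-likelihood test with Benjamini-Hochberg adjustment). It was lower in muscle, at -1.503 (SE 0.31, edgeR quasi-likelihood, Benjamini-Hochberg adjusted p = 0.000448). These were the calls for miR-143-3p at an adjusted p below 0.05 together with a log2 fold change of 1.5 or more in size, a rule that 14.9% of all 1391 miRNAs met in spleen, 13.7% in muscle, 12.4% in lung, 12.4% in kidney, 12.1% in liver and 10.1% in heart. The muscle value lay at the threshold, and without low-altitude goat 1 it was -1.421. The spleen value was 1.3996 without low-altitude goat 2. Of the 15 tissue pairs, 4 were called for miR-143-3p and 4 for miR-145-5p, where 11.4% of all tests over the 15 pairs were called. With library size in place of TMM they were 8 and 8, beside 12.5% of all tests.

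miR-145-5p followed a similar order at a far lower level. Its mean was 3453 RPM ± 1940.3 (SD, n = 6) in spleen, 2198 ± 1490 in lung, 1013 ± 681 in kidney, 793 ± 491 in heart, 617 ± 313 in liver and 275 ± 112 in muscle. Kidney and heart thus stood above liver for miR-145-5p and below it for miR-143-3p. Only liver over muscle, at 1.09 on the log2(RPM + 1) scale and in 6 of 6 goats, passed among its 5 neighbour pairs (exact permutation adjusted p = 0.0487). Spleen over lung (0.68, exact permutation adjusted p = 0.310) and lung over kidney (1.11, exact permutation adjusted p = 0.0779) did not. With goats paired, liver over muscle and spleen over lung, the latter also in 6 of 6 goats, each had an exact sign-flip permutation adjusted p of 0.0781. On TMM-scaled counts liver over muscle was -0.06 and spleen over lung 0.73, in 5 of 6 goats.

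In the fit across all miRNAs, miR-145-5p was called in spleen against the other 5 tissues, with a log2 fold change of 1.61 (SE 0.29, edgeR quasi-likelihood, Benjamini-Hochberg adjusted p = 0.00014). Without high-altitude goat 2 that value was 1.48. Liver (-1.27, SE 0.36) and muscle (-1.21, SE 0.36) passed the adjusted p alone, as did lung in the other direction (0.88, SE 0.30), at 0.0122, 0.0147 and 0.0448 in the same edgeR quasi-likelihood test with Benjamini-Hochberg adjustment. The other arms were called in spleen too, miR-143-5p at 2.08 (SE 0.21) and miR-145-3p at 1.998 (SE 0.24).

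**Figure D1:**
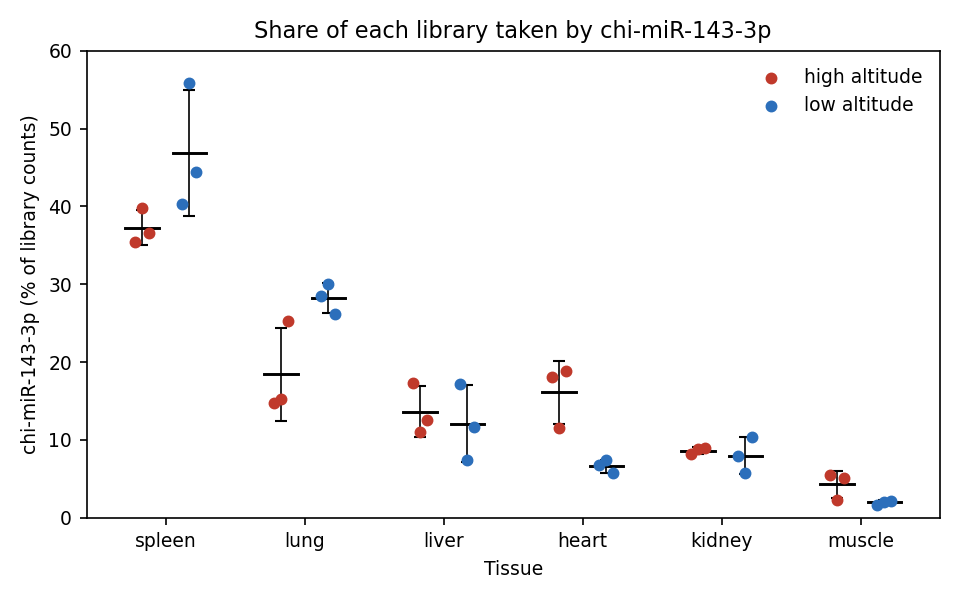
Share of the library counts taken by chi-miR-143-3p (vertical axis, %) in each of the 36 libraries, by tissue (horizontal axis) and altitude (colour); points are libraries, horizontal lines are means and error bars are SDs of 3 libraries. Spleen libraries sit between 35.4 and 55.9% and muscle libraries between 1.69 and 5.51%, and the altitudes separate in opposite directions in heart and muscle against lung and spleen.

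Between altitudes, the share of miR-143-3p differed in opposite directions from tissue to tissue. In heart it was 18.1, 11.5 and 18.9% in the high-altitude goats and 6.77, 7.42 and 5.75% in the low-altitude goats. In muscle it was 5.51, 2.28 and 5.08% against 1.69, 2.09 and 2.19%. Both tissues were higher at high altitude without overlap, although high-altitude muscle replicate 2 was close to the low-altitude libraries and only heart stayed so on counts scaled by TMM within the tissue. In lung the high-altitude shares were 14.7, 15.3 and 25.2%, against 28.5, 30.0 and 26.2%. In spleen they were 35.4, 39.8 and 36.7% against 40.3, 55.9 and 44.5%. Lung and spleen were thus lower at high altitude without overlap (neither on TMM-scaled counts), with a single high-altitude lung library near the low-altitude range and adjacent values in spleen.

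The remaining organs overlapped. High-altitude kidney shares were 8.14, 8.79 and 9.01%, against 7.89, 5.72 and 10.4%, and liver shares were 17.3, 10.99 and 12.6% against 17.2, 7.47 and 11.7%. Means at high minus low altitude were 9.51 percentage points in heart, 2.30 in muscle, -9.83 in lung and -9.60 in spleen, each with a two-sided exact permutation p of 0.1 (0.15 adjusted over 6 tissues). With 3 against 3 goats 0.1 is the smallest possible p, so no such test could pass 0.05. Kidney (0.65) and liver (1.54) each had an exact permutation p of 0.7, and leaving out a single library could reverse the sign in both. The Wilson 95% interval of each share spanned at most 0.0347 points to either side, which covers counting error only.

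RPM values without overlap were also common among other miRNAs. Of the 308 miRNAs with a mean of at least 10 RPM, 22.7% were higher at high altitude without overlap in heart and 10.1% in muscle, and 14.3% were lower in lung and 13.6% in spleen. On counts scaled by TMM within the tissue, an alternative chosen after seeing the data, miR-143-3p was higher without overlap in 1 tissue and lower in 0. In the edgeR fits its log2 fold changes, high over low altitude, were 1.09 (SE 0.27) in heart, 1.34 (SE 0.55) in muscle, 0.31 (SE 0.49) in liver, 0.15 (SE 0.50) in kidney, -0.27 (SE 0.55) in lung and -0.41 (SE 0.31) in spleen. None passed, and the smallest adjusted p was 0.376, in heart (edgeR quasi-likelihood, Benjamini-Hochberg). The sign in kidney and lung changed when a single library was left out. In muscle the median over the miRNAs with at least 10 RPM was itself 0.16 in that fit.

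miR-145-5p was lower on average at high altitude in each tissue. In heart its RPM was 235, 770.0 and 264 in the high-altitude goats, against 796, 1309 and 1383 in the others. In kidney it was 656, 631 and 460.0 against 1028, 2330.1 and 973. In spleen it was 2382, 2612 and 1232 against 6777, 4433 and 3282. These 3 tissues did not overlap on the RPM scale (2 tissues on TMM-scaled counts), with heart replicate 2 at high altitude just under the lowest low-altitude heart, and the direction was opposite to that of the miR-143-3p share in heart.

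Liver, lung and muscle overlapped for miR-145-5p. High-altitude liver RPM was 236, 438 and 709, against 623, 1162 and 536, lung RPM was 2234, 1319 and 1046 against 5040.5, 1247 and 2304, and muscle RPM was 187, 201 and 251 against 477, 205 and 328. One low-altitude lung library, at 5040.5, and one low-altitude kidney library, at 2330.1, stood far above the rest of their tissue. Of the 308 miRNAs with at least 10 RPM, the share lower at high altitude without overlap was 9.74% in heart and 7.79% in kidney. On the RPM scale 27 of the 308 were lower in 3 or more tissues. In the edgeR fits the log2 fold changes were -1.58 (SE 0.56) in heart, -1.25 (SE 0.46) in spleen, -1.22 (SE 0.55) in kidney, -0.75 (SE 0.62) in lung, -0.53 (SE 0.58) in liver and -0.50 (SE 0.46) in muscle. Heart had the smallest adjusted p, 0.655 (edgeR quasi-likelihood, Benjamini-Hochberg). Without low-altitude replicate 1, the lung value was 0.02.

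miR-143-5p, the rare arm of miR-143, separated the altitudes in every tissue on the RPM scale. High-altitude spleens had 97.5, 86.7 and 94.1 RPM, and low-altitude spleens 520.2, 418 and 535. Liver had 18.3, 37.1 and 28.2 against 171, 154 and 115, and heart had 19.6, 27.2 and 21.8 against 103, 91.6 and 57.3. These were wide gaps, with each low-altitude library above the high-altitude libraries. High-altitude kidneys had 10.7, 32.7 and 15.5 RPM, against 54.8, 69.6 and 51.7. Lung had 15.95, 35.0 and 24.5 against 56.8, 44.1 and 60.1, and muscle had 11.2, 13.6 and 10.02 against 29.2, 28.1 and 16.9. In lung and muscle the gaps were narrow.

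Among the 308 miRNAs with at least 10 RPM, 0.325% were lower at high altitude without overlap in all 6 tissues, which was 1 miRNA, miR-143-5p, and 0.649% were higher in all 6, the 2 miRNAs miR-504-5p and miR-223-3p, neither of them on TMM-scaled counts. The count of lower tissues depended on the scale too: with TMM factors from within the tissue miR-143-5p was lower without overlap in 5 tissues and the 1 miRNA lower in all 6 was miR-106b-5p, and with TMM factors over all 36 libraries in 4. With miR-143-3p left out of the library totals it was 6. Of the 308 miRNAs, 5 were lower in 5 or more tissues with factors from within the tissue. With factors over all 36 libraries 17 were lower in 4 or more. These scales, and the 3 other miRNAs named here, were chosen after seeing the data. The edgeR log2 fold changes of miR-143-5p were -2.44 (SE 0.35) in spleen, -2.31 (SE 0.47) in liver, -2.06 (SE 0.40) in heart, -1.78 (SE 0.49) in kidney, -1.02 (SE 0.50) in muscle and -0.90 (SE 0.45) in lung. With edgeR quasi-likelihood and Benjamini-Hochberg adjustment, the adjusted p was 0.0874 in spleen, 0.214 in liver and 0.237 in heart, and above these in the other 3 tissues.

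miR-145-3p was lower at high altitude without overlap in 4 tissues, or 3 on TMM-scaled counts. Its RPM ran from 1109 to 1697 at high and from 4974 to 6147 at low altitude in spleen, from 251 to 604 against 1005 to 1572 in liver, from 274 to 436 against 549 to 885 in kidney, and from 108 to 188 against 201 to 329.7 in muscle. Of the 308 miRNAs with at least 10 RPM, the share lower without overlap was 13.0% in liver and 13.6% in muscle. On the RPM scale 18 of the 308 were lower in 4 or more tissues. Heart (236 to 559.6 against 301 to 792) and lung (523 to 793 against 667 to 1080.2) overlapped. In spleen the edgeR log2 fold change was -2.04 (SE 0.29), with a Benjamini-Hochberg adjusted p of 0.0874 by the quasi-likelihood test.

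**Figure D2:**
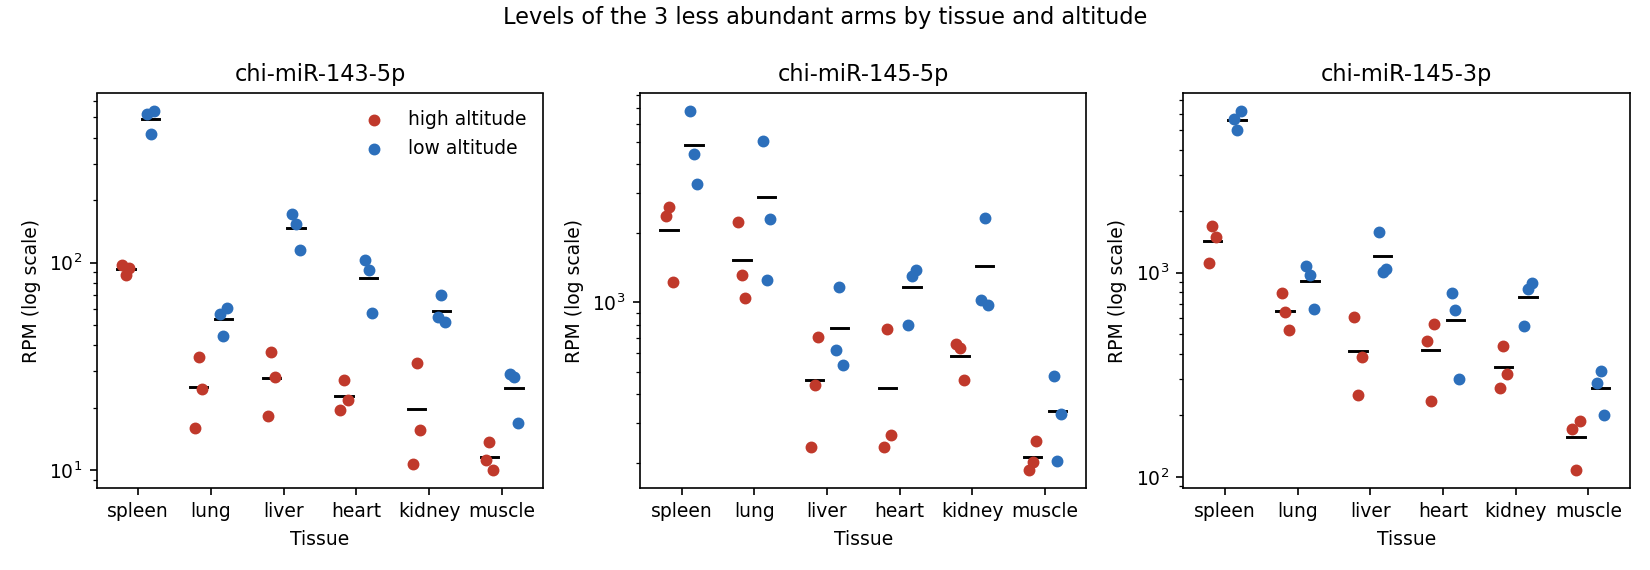
RPM on a log axis of chi-miR-143-5p, chi-miR-145-5p and chi-miR-145-3p (a panel each) by tissue and altitude; points are libraries and horizontal lines are means of 3. The high-altitude libraries of miR-143-5p lie below the low-altitude libraries in each of the 6 tissues, those of miR-145-3p in 4 and those of miR-145-5p in 3; with TMM factors over all 36 libraries the numbers are 4, 3 and 2.

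By the edgeR quasi-likelihood test, 0 of the 8 members were called between altitudes in any tissue. Of the 1391 miRNAs the same rule called 0.144% in spleen, 0.0719% in muscle, 0% in heart, 0% in lung, 0% in kidney and 0% in liver. At an unadjusted p under 0.05 the members numbered 3 in spleen, 3 in heart, 2 in liver, 2 in kidney, 1 in muscle and 0 in lung. Of all miRNAs, 5.75% were below that p in spleen, 6.4% in heart, 4.24% in liver, 4.6% in kidney, 6.18% in muscle and 4.74% in lung. The edgeR exact test called 0 members in the 6 tissues, and of all miRNAs 0.216% in spleen, 0.791% in heart, 0.575% in liver, 0.0719% in kidney, 0.359% in muscle and 0.144% in lung. The DESeq2 Wald test called 2 in heart (miR-143-5p and miR-145-5p), 1 in kidney and 1 in liver (miR-143-5p in each), 2 in spleen (miR-143-5p and miR-145-3p) and 0 in lung and muscle. It called 4.3% of the miRNAs given an adjusted p in heart, 2.77% in kidney, 3.12% in liver and 3.72% in spleen. One edgeR fit over 36 libraries called 1 member in heart (0.144% of all miRNAs), 1 in liver (0.503%) and 1 in spleen (0.359%), miR-143-5p in each. With the filterByExpr filter 2 were called in spleen, beside 2.11% of the miRNAs kept.

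Whether the altitude difference itself differed between tissues was tested with 5 interaction terms in a fit over the 36 libraries. None of the 8 members passed, where 0.216% of all miRNAs did. In that edgeR quasi-likelihood F test the Benjamini-Hochberg adjusted p was 0.692 for miR-143-5p, 0.949 for miR-145-3p, 0.973 for miR-143-3p and 1 for miR-145-5p. That test used TMM-scaled counts, and whether the difference in the library share of miR-143-3p differed between tissues was not tested.

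Summed RPM of cell type markers separated the altitudes in some of the same tissues, and their part in the results above was not tested. Over all lists and tissues, 9 sums were higher at high altitude without overlap, 5 were lower and 46 overlapped. Single miRNAs separated often too: of the 308 with at least 10 RPM, from 40 in kidney to 100 in heart did so in either direction. In heart the stromal list was lower at high altitude (47507 RPM ± 7344 against 122445 ± 53612, SD, n = 3), and the leukocyte list was higher (2778 ± 752 against 1781 ± 217). Epithelial and ciliated markers and the kidney list were also higher in high-altitude heart, the epithelial list at 37.8 against 10.5 RPM, the ciliated at 10.5 against 3.37 and the kidney list at 197 against 113. The kidney list did not mark kidney alone, since it summed to 17634 RPM in liver and 3381 in kidney. Its 4 entries were called higher in both against the other 5 tissues, beside 12.1% of all miRNAs called in liver and 12.4% in kidney in either direction. In liver the stromal list (47105 ± 12612 against 84201 ± 7873) and the erythroid list (3672 ± 3069 against 9240.2 ± 661) were lower at high altitude. Striated muscle markers were higher in high-altitude kidney (1739.98 ± 456 against 448.6 ± 229.6) and lower in high-altitude muscle (446951 ± 69998 against 528702 ± 23262). These sums and the typical entry did not always move together: the median log2 fold change of the striated entries in muscle was 0.54 (all miRNAs 0.16), and that of the stromal entries in heart was 0.02 (all miRNAs 0.01). Smaller sums also separated, all higher at high altitude: epithelial in muscle (42.2 against 11.7 RPM), hepatocyte in lung (74.1 against 9.58), the kidney list in lung (236 against 137) and ciliated in spleen (42.1 against 16.4). The most abundant entries were miR-486-5p (erythroid), miR-133b-5p (striated), miR-122-5p (hepatocyte), miR-141-3p (epithelial), miR-34c-5p (ciliated) and miR-194-5p (kidney list).

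At an unadjusted p under 0.05, summed over the 6 tissues, 6 leukocyte entries were higher at high altitude and 0 lower. The counts were 7 and 3 for striated, 6 and 1 for epithelial, 4 and 0 for ciliated, 2 and 0 for endothelial, 2 and 1 for the kidney list, 1 and 0 for hepatocyte and 0 and 0 for erythroid entries, where between 4.24 and 6.4% of all miRNAs in a tissue were below that p. None of these entries was called between altitudes by the edgeR quasi-likelihood test. Median log2 fold changes of the leukocyte entries were above those of all miRNAs in each tissue: 1.17 in spleen, 1.13 in liver, 0.65 in heart, 0.56 in muscle, 0.53 in kidney and 0.50 in lung. Their part in the member differences was not tested.

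The ratio of miR-143-3p to miR-145-5p within a library does not depend on the scaling between libraries. Its log2 value averaged 7.73 ± 0.99 (SD) over the 18 high-altitude and 6.42 ± 0.95 over the 18 low-altitude libraries. In heart it ran from 7.22 to 9.59 at high and from 5.38 to 6.41 at low altitude, a difference in means of 2.89. Muscle (6.82 to 8.20 against 5.15 to 6.67, difference 1.61), kidney (6.96 to 7.61 against 4.62 to 6.74, difference 1.36) and spleen (7.21 to 8.22 against 5.89 to 7.08, difference 0.91) were also higher without overlap. Each of these 4 tissues had a two-sided exact permutation p of 0.1, the smallest possible with 3 against 3 (0.15 adjusted over 6 tissues). Liver (difference 1.03, exact permutation p = 0.5) and lung (0.08, exact permutation p = 0.7) overlapped. The lung difference was -0.41 without high-altitude replicate 3 and -0.43 without low-altitude replicate 1.

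The ratio averaged over the 6 tissues of a goat was 7.92, 7.21 and 8.06 in the high-altitude goats and 6.27, 6.33 and 6.64 in the low-altitude goats. The goats did not overlap, and the difference was 1.31 (two-sided exact permutation p = 0.1, the smallest possible). Over the same tissues, mean log2 RPM of miR-145-5p at high minus low altitude was -1.03, without overlap of goats, whereas that of miR-143-3p was 0.28, with overlap (exact permutation p = 0.3).

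**Figure D3:**
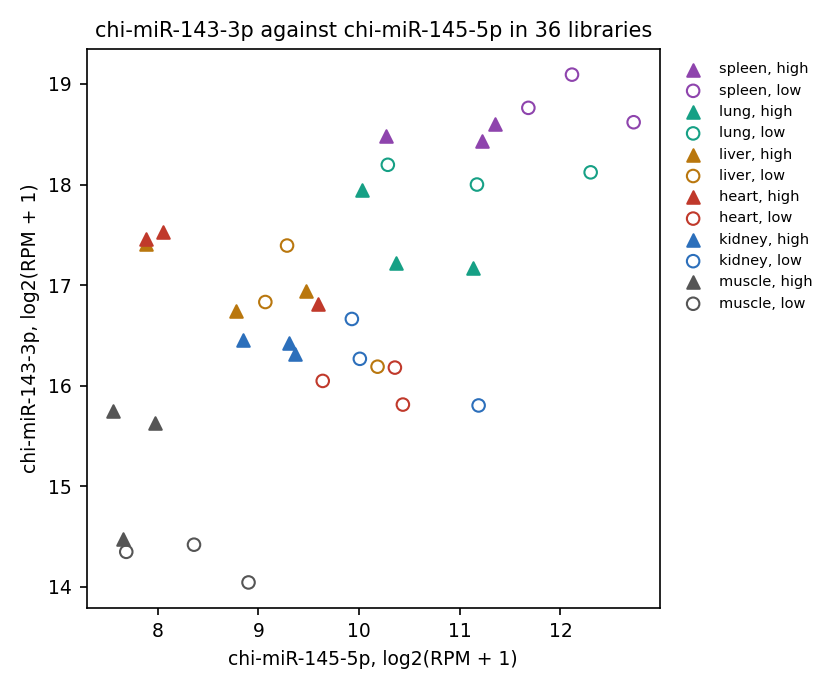
Log2(RPM + 1) of chi-miR-143-3p (vertical axis) against chi-miR-145-5p (horizontal axis) in 36 libraries, with colour for tissue, filled triangles for high and open circles for low altitude. Spleen and lung lie at the top right and muscle at the bottom left (r = 0.64), while within heart, kidney, liver and muscle the points slope downward, which in kidney and muscle does not hold on TMM-scaled counts.

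Across tissues the pair rose and fell together. Over the 6 tissue means of log2(RPM + 1), Pearson's r was 0.94 and Spearman's rho 0.77, and over the 36 libraries r was 0.64 and rho 0.58, both as descriptions since the tissues come from the same goats and share their library totals. After the mean of each of the 12 tissue and altitude groups was subtracted, r over the 36 libraries was -0.51 (0.17 on TMM-scaled counts) and rho -0.56. The sign of this r depended on the scale.

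Within a tissue, over 6 goats, r ranged from negative to positive. It was -0.94 in heart (rho -0.89, two-sided exact permutation p = 0.0278 for r and 0.0333 for rho, both 0.2 after adjustment over the 12 coefficients). The 6 hearts fell into the altitude groups, and without the 2 goats farthest from the median r was -0.64. In kidney r was -0.73 (0.14 on TMM-scaled counts) and rho -0.66 (exact permutation p = 0.172 and 0.175), in liver -0.71 and -0.49 (exact permutation p = 0.1 and 0.356), and in muscle -0.54 (0.12 on TMM-scaled counts) and -0.71 (exact permutation p = 0.228 and 0.136). Lung (r 0.15, rho 0.09, exact permutation p = 0.839 and 0.919) and spleen (r 0.52, rho 0.77, exact permutation p = 0.264 and 0.103) were positive. Without the 2 farthest goats r was 0.56 in spleen, 0.24 in lung, 0.56 in liver, -0.89 in kidney and -0.80 in muscle. None passed after adjustment, and the liver sign changed. Without 1 goat, low-altitude replicate 2, kidney r was 0.0539, and lung r was -0.0303 without high-altitude replicate 2 and -0.30 without low-altitude replicate 1.

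The arms of miR-143 were far more unequal than those of miR-145. miR-143-5p made up 0.0221% ± 0.0124 (SD, n = 18) of both miR-143 arms at high altitude and 0.0991% ± 0.0525 at low altitude. This percentage was lower at high altitude without overlap in 5 tissues, each with a two-sided exact permutation p of 0.1, the smallest possible (0.12 adjusted over 6 tissues). In lung it overlapped (0.0145% against 0.0192%, exact permutation p = 0.3). In log2 terms the ratio of miR-143-3p to miR-143-5p was higher at high altitude by 3.10 in heart, 2.66 in liver, 2.08 in muscle, 2.08 in spleen, 1.88 in kidney and 0.49 in lung.

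Such differences between arms were not confined to miR-143. Among 81 hairpins with both arms at a mean of at least 10 RPM, the difference between the edgeR log2 fold changes of the arms ranked 7 by size in heart, 10 in muscle, 14 in spleen, 16 in kidney, 16 in liver and 41 in lung for miR-143. For miR-145 it ranked between 43 and 71. miR-145-3p made up from 17.6 to 71.9% of both miR-145 arms, with no separation of the altitudes in any tissue (exact permutation p from 0.3 to 1). Its mean was 54.6% in liver and 29.3% in lung, so the more abundant arm of miR-145 was not the same throughout.

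miR-143-5p and miR-145-3p resembled each other most. Over the 36 libraries r of their log2(RPM + 1) was 0.88, and each was the closest of 307 miRNAs to the other. miR-145-5p came 37th in likeness to miR-143-3p, and miR-145-3p 11th (r = 0.76). For deviations from the group means, r was 0.48 between miR-143-3p and miR-145-3p, 0.08 between miR-143-5p and miR-145-3p and -0.26 between the arms of miR-145.

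The 5 miRNAs most like miR-143-3p over the 36 libraries, by Pearson's r of log2(RPM + 1) among 307, were miR-146a-3p (0.91), miR-142-5p (0.89), miR-330-5p (0.86), miR-142-3p (0.82) and miR-155-5p (0.81). miR-142 and miR-155 are known as miRNAs of blood cells, and all 5 had their highest mean in spleen. For miR-145-5p they were miR-19a-3p (0.85), miR-19b-3p (0.83), miR-342-3p (0.80), miR-330-5p (0.79) and miR-191-5p (0.78). The median r over all 307 was 0.15 for miR-143-3p and 0.16 for miR-145-5p. These libraries share tissues, goats and totals, so the coefficients carry no p.

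The leukocyte list (8 entries, led by miR-142-5p) summed to 43262 RPM ± 18526 (SD, n = 6) in spleen, 12512.5 ± 5514 in liver, 10714 ± 2452 in lung, 2685 ± 984 in kidney, 2279.8 ± 737 in heart and 1276 ± 495 in muscle. Spleen and muscle thus stood at the same ends as for miR-143-3p, and 7 of the 8 were called higher in spleen, beside 14.9% of all miRNAs called in either direction. Whether leukocytes carried part of the miR-143-3p signal was not tested. The endothelial miR-126 arms, led by miR-126-3p, summed to 21318 RPM in lung, 19802 in liver, 11959.5 in heart, 9369 in spleen, 9096 in kidney and 7596 in muscle, with lung libraries from 7543 to 38674. In the edgeR fit against the other 5 tissues 0 of the 2 arms were called higher in any tissue and 1 was called lower in lung (12.4% of all miRNAs).

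The miRNAs known for the state of vascular smooth muscle (24 entries from 12 names, led by miR-26a-5p) were ordered differently from miR-143-3p. Their summed RPM was highest in muscle (342250 ± 20859.8, SD, n = 6) and lowest in kidney (105696 ± 34392), and it included the striated muscle miRNAs miR-1 and miR-133a. Against the other 5 tissues, 4 entries were called higher and 5 lower in spleen, and 5 higher and 6 lower in muscle, where the shares of all miRNAs called in either direction were 14.9% and 13.7%. Between altitudes 0 were called in any tissue by the edgeR quasi-likelihood test, with 5 higher and 6 lower at an unadjusted p under 0.05 over the 6 tissues (of all miRNAs, between 4.24 and 6.4% in a tissue). In liver the sum was lower at high altitude without overlap (167306 against 216496), although the median log2 fold change of its entries there was 0.13 (all miRNAs -0.06).

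The stromal list, chosen for fibroblasts and mesenchymal cells, was led by miR-10a-5p. That miRNA averaged 104586 RPM in lung and 93045 in kidney but 1189 in heart and 2525 in liver, so it weighs unequally on the stromal sums. The list had 1 call between altitudes among 22 entries, miR-100-5p in spleen, where 0.144% of all miRNAs were called. miR-100-5p was lower at high altitude by a log2 fold change of -3.56 (SE 0.39, edgeR quasi-likelihood, Benjamini-Hochberg adjusted p = 0.0386). It was chosen after its values were seen, because the count was 1. With the replicate number as a block, 0% of all miRNAs were called in spleen, so that this call was lost. At an unadjusted p under 0.05, 1 stromal entry was higher and 13 were lower, summed over the 6 tissues. Of all miRNAs, between 4.24 and 6.4% in a tissue were below that p in either direction. The medians of the stromal log2 fold changes went both ways: 0.39 in lung, 0.10 in muscle, 0.02 in heart, -0.03 in kidney, -0.24 in liver and -0.29 in spleen. Over all 308 miRNAs they were 0, 0.16, 0.01, -0.05, -0.06 and 0.03.

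The 4 faint members all carried a leading conserve-. conserve-chi-miR-145-1-5p had reads in 2 libraries, up to 85 counts in low-altitude spleen replicate 1, and conserve-chi-miR-145-1-3p in 2 libraries, up to 156 counts in low-altitude lung replicate 2. conserve-chi-miR-145-2-3p had reads in 13 libraries with at most 14 counts, and conserve-chi-miR-145-3p in 2 libraries with at most 3. Their means lay between 0.0112 and 0.462 RPM, and 0 were called between altitudes. Against the other 5 tissues, conserve-chi-miR-145-2-3p was called in spleen, beside 14.9% of all miRNAs, with a log2 fold change of 3.83 (edgeR quasi-likelihood, Benjamini-Hochberg adjusted p = 0.00323), but not by DESeq2. conserve-chi-miR-145-1-5p had 25 and 85 counts in 2 spleen libraries and 0 in all others, so it entered the test through spleen alone and its call there is given without a value. The edgeR quasi-likelihood test also called conserve-chi-miR-145-2-3p lower in heart, where 0 libraries had reads, than in spleen (-5.99, a size that depends on how the fit treats counts of 0, Benjamini-Hochberg adjusted p = 0.0265, beside 11.7% of all miRNAs), and without any 1 goat the value ran from -6.25 to -5.68 and no longer passed. Whether some of their reads belong to the main miR-145 arms could not be checked from counts alone.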

How the data were processed

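The authors deposited raw counts per mature miRNA: they had called bases with CASAVA 1.8, mapped the reads to the goat genome with Bowtie and counted them with miRDeep2 2.0.0.7 against miRBase 21, keeping miRNAs with at least 3 reads in 1 library. All 1391 were used. Members and lists were chosen with earlier results of these data known. Named are all members, the 5 miRNAs most like miR-143-3p and miR-145-5p, and from each list of cell type markers the counts and most abundant entry; miR-100-5p, miR-504-5p, miR-223-3p and miR-106b-5p were named after their values were seen, and tissue label markers by their own list. Altitude was tested within each tissue and tissues in 1 fit over 36 libraries, with TMM factors and edgeR 4.0.16 in R 4.3.3; DESeq2 1.42.0 served as an alternative. Permutation tests were written in Python 3.11.15 (NumPy 2.4.6, SciPy 1.17.1, pandas 2.3.3, matplotlib 3.10.9) and tested on simulated data. The sample titles carry a replicate number. Within an altitude, libraries with equal numbers were taken to come from the same goat, which the labels do not state. Counts of goats, goat means and tests with goats paired rest on this. Deviations from group means correlated at a mean r of 0.0677 for tissues of the same goat (40 of 90 pairs over 0.1) and -0.0331 for different goats. Median totals were 10513606 counts at high and 10343877 at low altitude. Erythroid miR-451, kidney miR-192 and 2 newly predicted miRNAs were not analysed here.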

Additional observations from a re-analysis of the deposited data

Results flagged for a closer look

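In low-altitude kidney replicate 2, miR-145-5p reached 2330.1 RPM, while the other 5 kidneys ran from 460.0 to 1028 RPM, so that this library stood far from the others. In low-altitude lung replicate 1, miR-145-5p reached 5040.5 RPM, and the other 5 lungs ran from 1046 to 2304 RPM. Both were found by a test for a single distant value at a level of 0.05 in 42 groups of 6 libraries, where chance alone gives about 1 in 20 groups. The difference was not tested further.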

How the results depend on the processing

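Of 981 alternative values for 99 results, 892 were counted as unchanged, 32 reversed, 16 moved, 15 became stronger and 26 weaker. The cause of these changes was not tested. The 892 are no measure of robustness, because they include values that had no way to change. The setting without a filter repeated the main fit, since all 1391 miRNAs were used in both. For miR-143-3p between altitudes in heart both gave a log2 fold change of 1.09. With 3 goats per altitude the smallest exact permutation p between altitudes was 0.1, so these tests were unable to pass 0.05. The 4 faint members had few reads. Intervals cover counting error only. Altitude cannot be told apart from breed, rearing and body weight.

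With DESeq2 the number of members called between altitudes was 2 in heart (4.3% of the miRNAs given an adjusted p), 1 in kidney (2.77%), 1 in liver (3.12%) and 2 in spleen (3.72%). In heart they included miR-145-5p (-1.63, DESeq2 Wald test, adjusted p = 0.0387). The number was 1 in heart (0.144% of all miRNAs), 1 in liver (0.503%) and 1 in spleen (0.359%) with one fit over 36 libraries, and 2 in spleen (2.11%) with filterByExpr, which drops faint miRNAs.

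Against the other 5 tissues, library size without TMM gave miR-143-3p -0.26 in heart and 0.11 in liver, and miR-145-5p -0.0395 in kidney and -2.17 in muscle, and called 8 of 15 tissue pairs for miR-143-3p and 8 for miR-145-5p (12.5% of all tests). In kidney, miR-145-5p was -0.0809 with DESeq2 and -0.0809 with its size factors in edgeR.

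Tissues of a goat are paired, here by replicate number within an altitude. With goat as a replicate block, miR-145-5p in heart was 0.11, conserve-chi-miR-145-1-5p lost its call in spleen, and the spleen calls of the 4 main arms and the muscle call of miR-143-3p stayed. With goats paired, the neighbour differences of miR-143-3p were 0.89 for spleen over lung, 0.86 for lung over liver and 1.54 for kidney over muscle, and that of miR-145-5p for liver over muscle 1.09, each no longer past 0.05. Among the member results compared between tissues in this way, the goat block changed no other call. Goats of the 2 altitudes share only a number: the mean r of same-numbered pairs was 0.0746, with 7 of 18 over 0.1. In heart all 3 pairs were over 0.1 (0.353 to 0.513) and 6 of 6 libraries came closest to their own number, a hint from the data and not the design, while in kidney all 3 were negative (-0.462 to -0.109) and 0 of 6 did. In the other tissues 2 to 4 of 6 did. With that number as a block, heart gave 1.08 for miR-143-3p and -1.82 for miR-145-5p, and the block left 0 members and 0% of all miRNAs called in every tissue. The spleen call of miR-100-5p was thus lost, as were the other altitude calls of the main fit in spleen and muscle.

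On TMM-scaled counts, miR-143-3p differed by 0.94 between spleen and lung, 0.77 between lung and liver, -0.47 between liver and heart and 0.83 between kidney and muscle, and miR-145-5p by -0.0585 between liver and muscle. The correlation r was 0.14 in kidney, 0.12 in muscle and 0.17 for deviations from group means. miR-143-3p was higher at high altitude without overlap in 1 tissue and lower in 0, both with TMM factors over 36 libraries and within the tissue, 2 scales chosen after seeing the data. With miR-143-3p left out of the total, miR-145-5p passed between lung and kidney (1.37).

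Leaving out 1 library at a time, the altitude log2 fold change of miR-143-3p ran from -0.0141 to 0.67 in kidney and from -0.83 to 0.0514 in lung, and that of miR-145-5p in lung from -1.11 to 0.0194. The share difference ran from -0.488 to 1.84 points in kidney and from -0.785 to 4.09 in liver. The log2 ratio difference in lung ran from -0.43 to 0.61. The miR-145-3p percentage difference ran from -4.10 to 6.52 in kidney, -2.37 to 10.7 in lung and -7.91 to 4.16 in muscle. Leaving out 1 goat, r ran from -0.97 to 0.0539 in kidney and from -0.30 to 0.37 in lung. Against the other 5 tissues, miR-145-5p ran from -0.54 to 0.16 in heart, -1.61 to -0.99 in liver, -1.54 to -1.16 in muscle and 1.48 to 1.83 in spleen, and miR-143-3p from -1.99 to -1.42 in muscle and 1.3996 to 1.79 in spleen. Tissue pairs called for miR-143-3p ran from 2 to 5.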
